A study of Mus musculus with 12 samples.

Results

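The 34 genes described here encode collagens and other components of the dermal and basement membrane matrix, together with 2 marker genes of the mesenchymal cells that make it. They were taken as a named list, and all 34 had values in both tables, out of 17750 genes with values at 6 months and 19392 at P36. They were sorted by role into 5 fibrillar collagens, 5 beaded-filament and fibril-associated collagens, 8 basement membrane genes, 3 proteoglycans, 4 elastic fibre genes, 7 matricellular and adhesive glycoproteins and 2 mesenchymal cell genes. RNA came from mouse epidermis of strain background C57BL/6, in 12 libraries: 3 labelled DKO (double knockout) and 3 control libraries at 6 months of age, and 3 of each at postnatal day 36 (P36). Per the labels, the DKO genotype is VDR fl/fl, Med1 fl/fl with K14 Cre+/-, and the control genotype carries the same floxed alleles with K14 Cre-/-, so both genotypes are floxed and the transgene is the labelled difference. The keratin 14 promoter drives Cre in basal keratinocytes and their descendants, and not in dermal fibroblasts. Per the labels' protocols, a piece of back skin was warmed in water and the epidermis was pulled off the dermis with forceps and scalpel. Gene levels were deposited as FPKM, fragments scaled by gene length and library total, and values below are listed in the order of replicates 1, 2 and 3.

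The skin matrix is made mostly by fibroblasts. Fibrillar collagens form the load-bearing fibres of the dermis, small leucine-rich proteoglycans bind those fibres and set their spacing, and collagen VI and the fibril-associated collagens link them to cells and to other matrix. The basement membrane between epidermis and dermis is a sheet of laminin and collagen IV joined by nidogen, and collagen VII anchors it to the dermis. Keratinocytes add to that sheet as well, and vessels, nerves, muscle and fat in the skin have basement membranes of their own.

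The label check came first. Vdr, the vitamin D receptor gene targeted in the study, had 49.3, 42.1 and 52.9 FPKM in the libraries labelled DKO and 53.5, 31.4 and 36.7 FPKM in control at 6 months (log2 fold change 0.27, SE 0.20, adjusted p = 0.302 in limma). At P36 it had 87.3, 86.7 and 76.5 FPKM in the libraries labelled DKO and 65.8, 65.5 and 72.8 FPKM in control (0.29, SE 0.09, adjusted p = 0.0573), so Vdr was not lower under the DKO label at either age. Med1, the Mediator subunit gene targeted with it, was lower at P36 (−0.55, SE 0.11, adjusted p = 0.0083) and did not pass at 6 months (−0.26, SE 0.12, adjusted p = 0.13). The tables give 1 FPKM value per gene, and exons were not analysed here. Med1 at P36 passed in the direction of the label while Vdr was not lower at either age, so each direction below rests on the label. A library held 12056 to 12760 genes at 1 FPKM or more, and its FPKM total lay between 446617 and 554382. The tissue label was checked on 10 basal keratinocyte genes, whose FPKM summed to 3786 to 4571 in the libraries labelled DKO and 4762 to 6346 in control at 6 months, and to 4904 to 6511 in the libraries labelled DKO and 2758 to 4948 in control at P36. DKO replicate 3 at 6 months stood apart from the other two of its group in the matrix genes, so 6-month results are given with and without it. Matrix genes of the dermis were measured beside them in every library: the lowest Col1a1 value of the 12 was 28.4 FPKM.

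Promoter sequences are shown for 6 members, chosen for the calls they had at the 2 ages or, for Col6a1, for a ratio. Tgfbi, Vim and Col15a1 passed the test in opposite directions at the 2 ages, and Col1a2 and Col3a1 passed at neither age. The ratio of Col6a1 to the fibrillar collagen gene Col1a1 was narrow among the libraries labelled DKO at 6 months and differed from control. Each line gives the 150 bases before the annotated start, 5′ to 3′ on the strand of the gene, from RefSeq on build GRCm38.p6. Capitals mark matches on either strand to CCAAT (the CCAAT box), to GGGCGG (the GC box), to TATAAA (the TATA box) or to TGANTCA (the AP-1 site).
Tgfbi, chr13:56609436-56609585 (plus strand): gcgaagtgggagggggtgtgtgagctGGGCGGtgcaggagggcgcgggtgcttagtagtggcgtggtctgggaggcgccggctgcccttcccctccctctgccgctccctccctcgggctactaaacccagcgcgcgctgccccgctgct
Vim, chr2:13574161-13574310 (plus strand): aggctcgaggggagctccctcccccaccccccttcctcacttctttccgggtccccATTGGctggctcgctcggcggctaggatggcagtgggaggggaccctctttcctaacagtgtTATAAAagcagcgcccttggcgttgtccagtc
Col15a1, chr4:47207862-47208011 (plus strand): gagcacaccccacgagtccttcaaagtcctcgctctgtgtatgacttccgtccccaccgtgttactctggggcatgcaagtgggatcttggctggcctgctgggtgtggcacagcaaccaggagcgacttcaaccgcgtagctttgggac
Col6a1, chr10:76726045-76726194 (minus strand): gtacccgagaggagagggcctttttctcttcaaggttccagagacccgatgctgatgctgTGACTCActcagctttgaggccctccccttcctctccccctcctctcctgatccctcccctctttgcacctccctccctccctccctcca
Col1a2, chr6:4505468-4505617 (plus strand): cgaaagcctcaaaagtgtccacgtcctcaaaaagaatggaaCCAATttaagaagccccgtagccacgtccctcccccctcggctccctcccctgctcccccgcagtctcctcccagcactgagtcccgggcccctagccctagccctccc
Col3a1, chr1:45311388-45311537 (plus strand): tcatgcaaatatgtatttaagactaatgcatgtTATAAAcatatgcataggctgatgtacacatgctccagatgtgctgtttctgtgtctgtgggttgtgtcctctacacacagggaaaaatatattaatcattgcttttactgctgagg
In these windows Tgfbi held a GGGCGG match, and Vim a CCAAT match on the opposite strand and a TATAAA match. Col6a1 held a TGANTCA match, Col1a2 a CCAAT match and Col3a1 a TATAAA match far from the annotated start, while the Col15a1 window held none of the 4. GC content was 72.0% in the Tgfbi window and 37.3% in the Col3a1 window. Promoters were found for 22 of the 34 members, in 26 windows of 250 bases. GGGCGG was in 15 of these 26 (57.7%), against 32.7% of 32851 promoters in all. CCAAT was in 8 (30.8%, against 33.8%), TATAAA in 5 (19.2%, against 12.4%) and TGANTCA in 1 (3.85%, against 6.75%). The median GC content was 58.8% in the member windows and 52.4% in all, and a letter match describes the window and is not a measured binding site.

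At P36 the matrix genes stood higher in the libraries labelled DKO. Of 34 members, 24 rose and 0 fell (limma, adjusted p below 0.05), against a background of 18.0% of 12660 genes called higher and 5.32% called lower (23.3% in either direction), and 0 members were lower at an unadjusted p below 0.05. With median-ratio scaling the genes called numbered 1643 higher and 1035 lower, against 2275 and 674 as deposited. The median log2 fold change of the members was 1.12, on the log2(FPKM + 1) scale, which understates changes of low genes, and that of all genes tested was 0.09. In 28 of the 34 every library labelled DKO exceeded every control library, a pattern found in 30.0% of all genes. By class, the lowest median was that of the fibrillar collagens (0.79, 2 of 5 called) and the highest that of the beaded-filament and fibril-associated collagens (1.35, 4 of 5). Between them lay the basement membrane genes (0.97, 5 of 8), elastic fibre genes (1.13, 4 of 4), proteoglycans (1.17, 2 of 3), matricellular genes (1.19, 5 of 7) and mesenchymal genes (1.20, 2 of 2). The order of the classes was not tested and turned on single libraries. The fibrillar median was 0.42 without control replicate 3, and it was above the basement membrane median without DKO replicate 2 (0.98 against 0.93) and without control replicate 1 (0.99 against 0.93). Without DKO replicate 1 the beaded-filament and matricellular medians were both 1.16. The 6 left-out-library fits gave 21 to 24 calls, and a fit that shared its spread with the 6-month libraries called 14. That shared fit lost Col5a1, Col5a2, Col4a1, Col4a2, Lum, Bgn, Eln, Lox, Thbs1 and Fstl1. Of the 24 calls, 12 held under all 14 alternatives run: Col6a1, Col6a2, Col6a3, Col12a1, Col7a1, Nid1, Fbn1, Mfap5, Postn, Tnc, Tgfbi and Vim. Bulk values cannot tell apart more or fewer cells of a type and more or less RNA per cell.

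**Figure D1:**
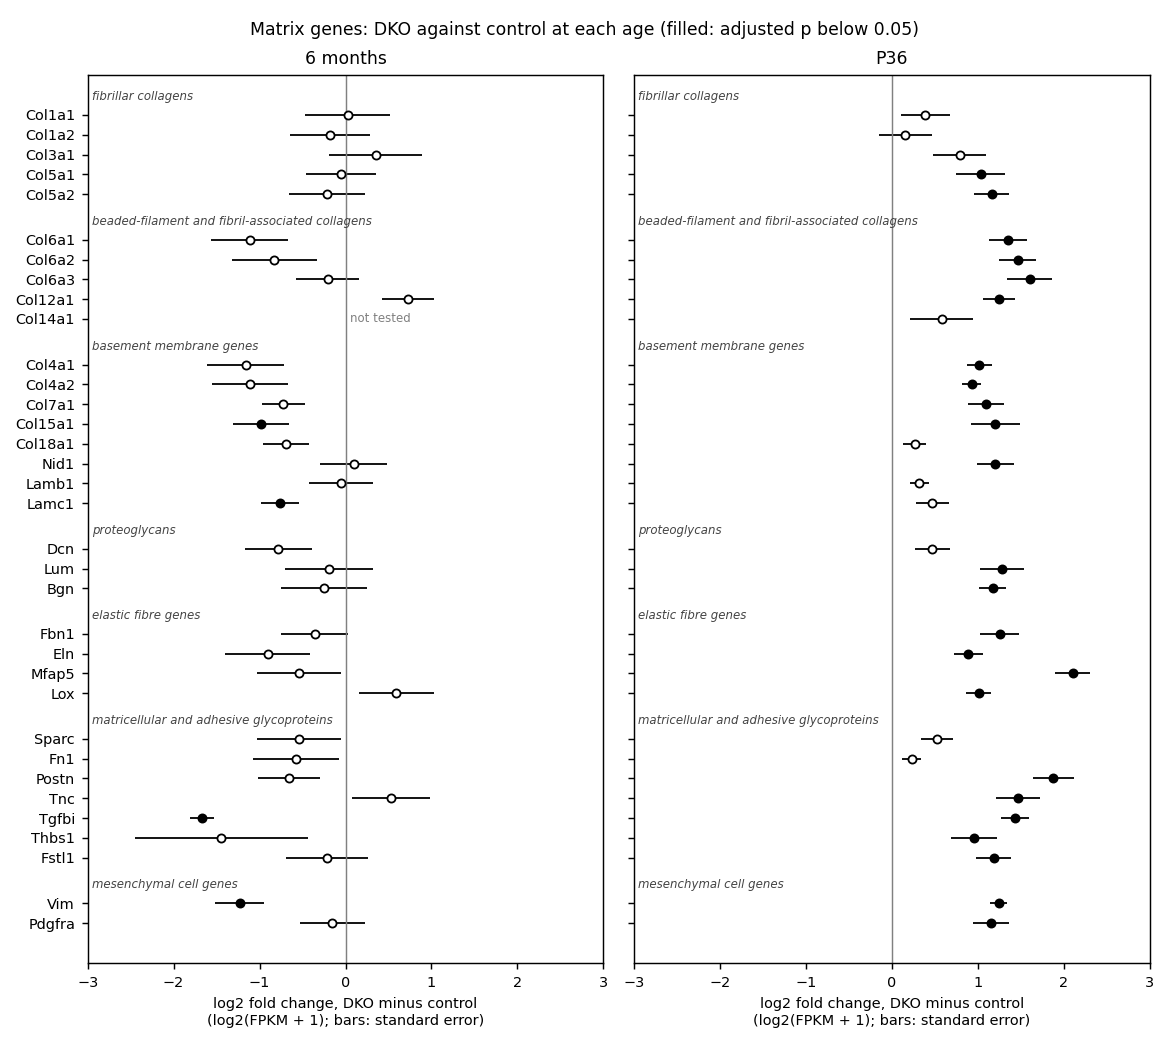
Log2 fold changes of the 34 matrix genes (x axis, log2(FPKM + 1), DKO minus control, with standard errors) at 6 months on the left and P36 on the right, grouped by class; filled points had an adjusted p below 0.05. At P36 all 34 points lie right of 0 and 24 are filled, and at 6 months 4 are filled, all left of 0.

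The main fibrillar collagens did not pass at P36. Col1a1, the larger share of the type I collagen heterotrimer, had 402, 359 and 408 FPKM in the libraries labelled DKO and 327, 446 and 179 FPKM in control (log2 fold change 0.39, standard error 0.29, adjusted p = 0.398). Its partner Col1a2 had 297, 210.3 and 293 FPKM in the libraries labelled DKO and 305, 313 and 138 FPKM in control (log2 fold change 0.16, standard error 0.31, adjusted p = 0.772). Col3a1, the type III collagen of pliable fibres, had 326, 224 and 349 FPKM in the libraries labelled DKO and 224, 215 and 102 FPKM in control (log2 fold change 0.79, standard error 0.31, adjusted p = 0.109). In all 3 genes control replicate 3 was the lowest of the 6 libraries and the groups overlapped. Control replicate 3 held 0.464, 0.448 and 0.462 times the mean of control replicates 1 and 2 for Col1a1, Col1a2 and Col3a1, and without it the log2 fold change of Col1a2 was −0.23. The 2 type V chains among the members, minor collagens that set fibril width, did pass. Col5a1 had 16.8, 11.4 and 13.7 FPKM in the libraries labelled DKO and 7.15, 9.2 and 3.57 FPKM in control (log2 fold change 1.03, standard error 0.28, adjusted p = 0.0323). Col5a2 had 23.0, 14.7 and 17.9 FPKM in the libraries labelled DKO and 8.39, 9.26 and 5.59 FPKM in control (log2 fold change 1.16, standard error 0.20, adjusted p = 0.00562). Neither type V gene overlapped between groups, although Col5a1 lost its call without any of DKO replicate 1 (adjusted p = 0.0954), DKO replicate 2 (0.0575), DKO replicate 3 (0.089) or control replicate 1 (0.0607).

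Collagen VI, which forms beaded microfilaments around cells, rose in all 3 chains measured here at P36. Col6a1 had 57.3, 38.3 and 38.5 FPKM in the libraries labelled DKO and 18.5, 20.8 and 12 FPKM in control (log2 fold change 1.35, standard error 0.22, adjusted p = 0.00426). Col6a2 had 65.3, 43.7 and 44.2 FPKM in the libraries labelled DKO and 18.1, 22.6 and 13.3 FPKM in control (log2 fold change 1.46, standard error 0.21, adjusted p = 0.0026). Col6a3 had 24.9, 13.2 and 12.8 FPKM in the libraries labelled DKO and 4.46, 6.17 and 3.62 FPKM in control (log2 fold change 1.60, standard error 0.26, adjusted p = 0.00416). DKO replicate 1 was the highest library for each of the 3 chains, and the groups did not overlap. Col12a1, a fibril-associated collagen of dense tissue, had 15.3, 10.1 and 8.91 FPKM in the libraries labelled DKO and 3.76, 3.9 and 4.78 FPKM in control (log2 fold change 1.24, standard error 0.19, adjusted p = 0.00312), again without overlap. Col14a1, the related fibril-associated collagen XIV, was low and overlapped, with 5.51, 3.27 and 2.25 FPKM in the libraries labelled DKO and 2.64, 3.31 and 0.73 FPKM in control (log2 fold change 0.58, standard error 0.37, adjusted p = 0.318).

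Of the basement membrane genes, 5 of 8 rose at P36. The collagen IV chain Col4a1 had 65.4, 65.3 and 50.4 FPKM in the libraries labelled DKO and 27.6, 34.9 and 25.5 FPKM in control (log2 fold change 1.02, standard error 0.15, adjusted p = 0.00256). Its partner chain Col4a2, whose gene lies head to head with it, had 41.3, 39.6 and 33.4 FPKM in the libraries labelled DKO and 18.2, 21.9 and 18.6 FPKM in control (log2 fold change 0.93, standard error 0.11, adjusted p = 0.00139). In both chains every library labelled DKO was above every control library. Col7a1, the anchoring fibril collagen that keratinocytes also make, had 8.03, 9.63 and 11.6 FPKM in the libraries labelled DKO and 5.04, 4.6 and 2.67 FPKM in control (log2 fold change 1.09, standard error 0.21, adjusted p = 0.00752). Nid1, the nidogen that joins laminin to collagen IV, had 16.6, 12.1 and 12.02 FPKM in the libraries labelled DKO and 5.8, 6.91 and 3.55 FPKM in control (log2 fold change 1.20, standard error 0.22, adjusted p = 0.00598). Col15a1, a collagen of vessel and muscle basement membranes, had 22.6, 19.4 and 18.2 FPKM in the libraries labelled DKO and 8.1, 13.4 and 4.77 FPKM in control (log2 fold change 1.20, standard error 0.29, adjusted p = 0.0195). All 3 separated the groups, and Col15a1 lost its call without DKO replicate 1 (adjusted p = 0.0611), DKO replicate 2 (0.0622), DKO replicate 3 (0.0506) or control replicate 1 (0.056). The chains that did not pass were Col18a1, whose C-terminal fragment is endostatin (0.26, adjusted p = 0.209), and the laminin chains Lamb1 (0.32, adjusted p = 0.0791) and Lamc1 (0.47, adjusted p = 0.123). Without control replicate 2, Lamc1 was called higher (0.64, adjusted p = 0.0436).

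The proteoglycans divided at P36. Lum, lumican, which limits the width of collagen fibrils, had 57.6, 33.6 and 50.1 FPKM in the libraries labelled DKO and 21.3, 23.1 and 12.5 FPKM in control (log2 fold change 1.28, standard error 0.26, adjusted p = 0.00944). Bgn, biglycan, had 221, 206 and 174 FPKM in the libraries labelled DKO and 85.1, 109 and 73.1 FPKM in control (log2 fold change 1.17, standard error 0.16, adjusted p = 0.00188). Dcn, decorin, the most abundant of the 3 in the 6-month libraries, had 206, 147 and 258 FPKM in the libraries labelled DKO and 165, 143 and 125 FPKM in control (log2 fold change 0.47, standard error 0.20, adjusted p = 0.138). Lum and Bgn did not overlap between groups, while the lowest DKO value of Dcn fell between control values. Without DKO replicate 2, the library with that lowest value, Dcn was called higher (0.68, adjusted p = 0.0336).

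The 4 elastic fibre genes and both mesenchymal genes rose at P36. Mfap5, a glycoprotein of elastin-associated microfibrils, had the largest change of all members, with 15.4, 10.9 and 8.45 FPKM in the libraries labelled DKO and 1.56, 2.19 and 1.84 FPKM in control (log2 fold change 2.10, standard error 0.20, adjusted p = 0.000609). Fbn1, fibrillin 1, the core of those microfibrils, had 13.9, 7.45 and 11.96 FPKM in the libraries labelled DKO and 4.26, 4.67 and 3.06 FPKM in control (log2 fold change 1.25, standard error 0.22, adjusted p = 0.00591). Eln, elastin itself, had 32.5, 43.2 and 46.2 FPKM in the libraries labelled DKO and 24.2, 23.0 and 17.2 FPKM in control (log2 fold change 0.89, standard error 0.17, adjusted p = 0.00734). No library crossed between groups in these genes. Lox, which cross-links collagen and elastin, had 8.88, 5.9 and 7.14 FPKM in the libraries labelled DKO and 2.99, 2.98 and 3.29 FPKM in control (log2 fold change 1.01, standard error 0.15, adjusted p = 0.0025). Vim, the intermediate filament protein of mesenchymal cells, had 262, 269 and 233 FPKM in the libraries labelled DKO and 111, 111 and 98.7 FPKM in control and the smallest standard error of the 34 (log2 fold change 1.24, standard error 0.10, adjusted p = 0.000416). Pdgfra, a receptor that marks fibroblasts, had 9.07, 4.76 and 7.88 FPKM in the libraries labelled DKO and 2.77, 2.91 and 2.21 FPKM in control (log2 fold change 1.15, standard error 0.21, adjusted p = 0.00631). These 3 also separated the groups.

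Of the matricellular and adhesive genes, 5 of 7 rose at P36. Postn, periostin, which binds collagen and promotes its cross-linking, had 139, 82.1 and 71.0 FPKM in the libraries labelled DKO and 23.7, 21.6 and 29.3 FPKM in control (log2 fold change 1.88, standard error 0.24, adjusted p = 0.00152). Tnc, tenascin C, a protein of wound matrix, had 40.2, 34.9 and 22.2 FPKM in the libraries labelled DKO and 7.99, 10.5 and 14.8 FPKM in control (log2 fold change 1.47, standard error 0.26, adjusted p = 0.00526). Tgfbi, a secreted protein induced by TGF-beta that binds collagens and integrins, had 83.6, 92.6 and 94.3 FPKM in the libraries labelled DKO and 39.4, 35.5 and 24.9 FPKM in control (log2 fold change 1.44, standard error 0.16, adjusted p = 0.00103). DKO replicate 1 was the highest library for Postn and Tnc but the lowest of its group for Tgfbi, and none of the 3 overlapped. Fstl1, a secreted relative of Sparc, had 102, 71.1 and 59.2 FPKM in the libraries labelled DKO and 33.1, 38.5 and 27.4 FPKM in control (log2 fold change 1.19, standard error 0.20, adjusted p = 0.005). Thbs1, thrombospondin 1, had 16.0, 32.2 and 19.6 FPKM in the libraries labelled DKO and 9.55, 8.55 and 14.9 FPKM in control (log2 fold change 0.95, standard error 0.27, adjusted p = 0.0384). Its groups were the closest among the called genes, with 16.0 FPKM in the lowest library labelled DKO and 14.9 FPKM in the highest control, and the call was lost without DKO replicate 2 (adjusted p = 0.0999), DKO replicate 3 (0.0806), control replicate 1 (0.111) or control replicate 2 (0.114). Sparc, a collagen-binding glycoprotein (0.52, adjusted p = 0.0806), and Fn1, fibronectin (0.23, adjusted p = 0.203), did not pass.

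**Figure D2:**
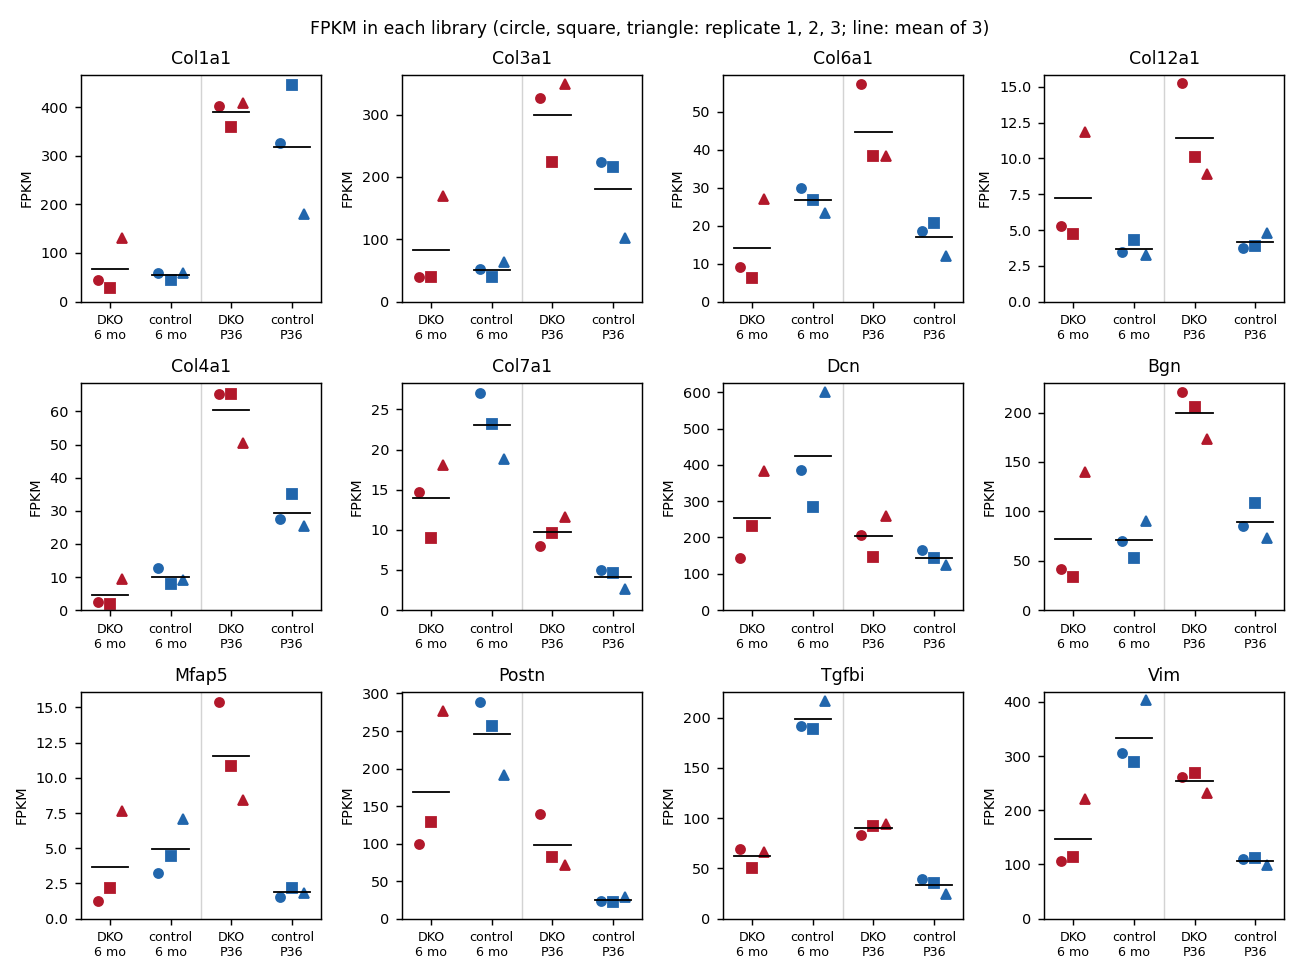
FPKM (y axis) of 12 matrix genes in each library, DKO in red left of control in blue, 6 months left of P36, with circle, square and triangle for replicates 1, 2 and 3 and a line at the mean of 3. DKO replicate 3 at 6 months stands apart for most genes, as in Col1a1 with 130.3 FPKM against 44.3 and 28.4 in the other two, but not for Tgfbi.

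At 6 months few of these genes passed the test, and their number moved most when DKO replicate 3 was left out. Of 33 members tested, 4 fell (Tgfbi, Vim, Lamc1 and Col15a1) and 0 rose, against a background of 18.2% of 12594 genes called lower and 23.2% called higher. With totals that leave out keratin and cornified envelope genes the genes called numbered 1879 higher and 3327 lower, against 2918 and 2289 as deposited. At an unadjusted p below 0.05, 9 members were lower and 1, Col12a1, was higher. Col14a1 did not reach the level filter, with 0.31, 0.29 and 2.82 FPKM in the libraries labelled DKO and 1.0, 0.51 and 0.8 FPKM in control. The median log2 fold change was −0.54 for the members and 0.04 for all genes tested. By class the medians were −0.06 for fibrillar collagens (0 of 5 called), −0.52 for beaded-filament and fibril-associated collagens (0 of 4), −0.74 for basement membrane genes (2 of 8 lower), −0.25 for proteoglycans (0 of 3), −0.45 for elastic fibre genes (0 of 4), −0.58 for matricellular genes (1 of 7 lower) and −0.69 for mesenchymal genes (1 of 2 lower). In 4 members every library labelled DKO lay below every control library and in 1 above, against 24.0% and 31.8% of all genes.

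DKO replicate 3 at 6 months held more matrix RNA than the other libraries labelled DKO in all 34 members. Its FPKM was 1.12 to 9.4 times the mean of DKO replicates 1 and 2, with a median of 3.55, and at least 2 times that mean in 29 members. Over the 12594 genes tested the median of the same ratio, on FPKM + 1, was 1.04, and 2.82% of genes reached 2. DKO replicate 3 was singled out for these same high values. Lower fold changes of the members without it therefore follow from the choice and are no separate evidence. Without that library 21 of 33 members were called lower and 0 higher, against 20.2% of 12346 genes called lower and 19.4% called higher, and the median of the members was −0.92 beside 0.01 for all genes. The 21 were 6 of 8 basement membrane genes, 2 of 5 fibrillar collagens, 2 of 4 beaded-filament and fibril-associated collagens, 2 of 3 proteoglycans, 3 of 4 elastic fibre genes, 5 of 7 matricellular genes and 1 of 2 mesenchymal genes. The class medians were then −0.59 for fibrillar collagens, −1.03 for beaded-filament and fibril-associated collagens, −0.99 for basement membrane genes, −0.87 for proteoglycans, −0.97 for elastic fibre genes, −1.15 for matricellular genes and −1.06 for mesenchymal genes. The fibrillar median was 0.30 without DKO replicate 2, 0.10 without DKO replicate 1 and 0.04 without control replicate 1. Leaving out any other library left 1 or 2 calls: 2 without DKO replicate 1, 1 without DKO replicate 2, and 2 without control replicate 1, 2 or 3.

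**Figure D3:**
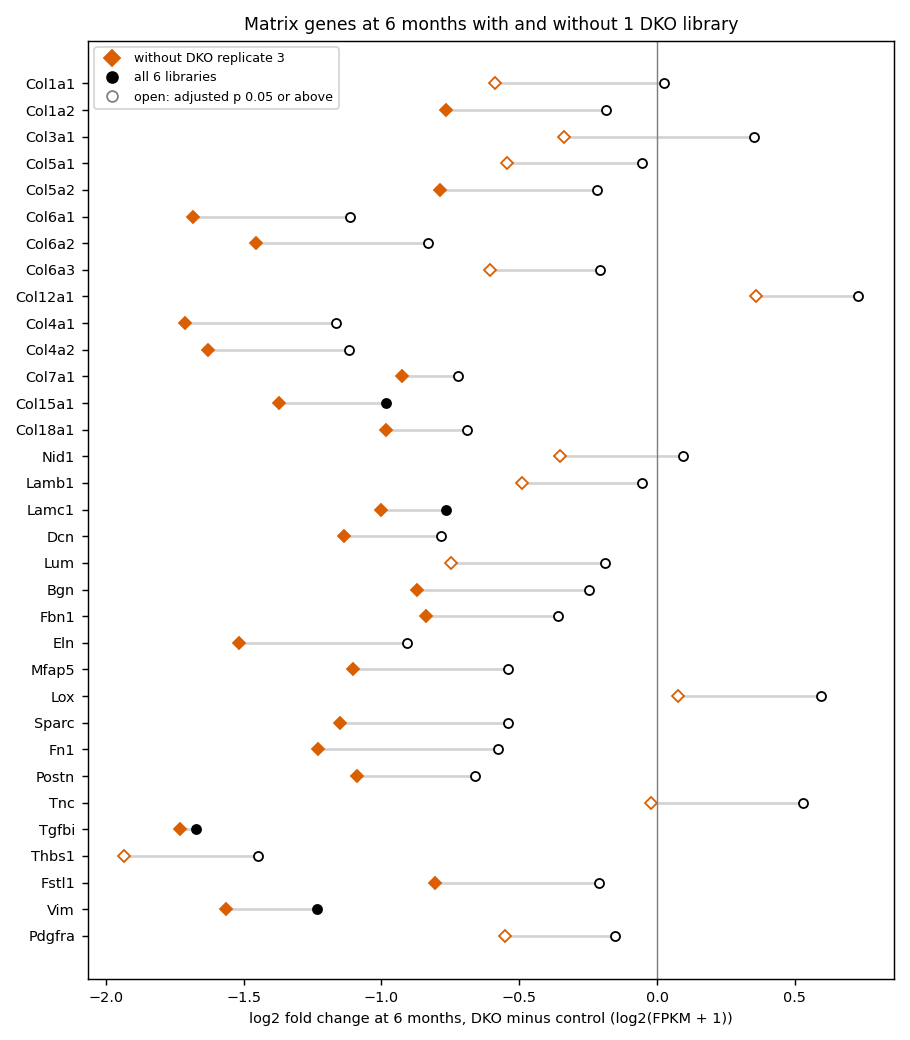
Log2 fold changes at 6 months (x axis, log2(FPKM + 1), DKO minus control) of the 33 members tested, without DKO replicate 3 (diamonds) and with all 6 libraries (circles), filled where the adjusted p was below 0.05. Every diamond lies left of its circle, which follows from leaving out a library above the mean of the other DKO libraries in every member. Filled are 21 diamonds and 4 circles, and Tgfbi moves least.

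Among the 4 called genes, Tgfbi was the clearest. It had 69.3, 50.3 and 66.8 FPKM in the libraries labelled DKO and 192, 188 and 216 FPKM in control (log2 fold change −1.67, standard error 0.14, adjusted p = 0.000344). DKO replicate 3 stood between the other two, all 3 were below every control library, and without it the value was −1.73, adjusted p = 0.000727. Tgfbi was the sole member called under each of the 14 alternatives run at this age. Vim had 107, 115 and 221 FPKM in the libraries labelled DKO and 306, 289 and 404 FPKM in control (log2 fold change −1.23, standard error 0.28, adjusted p = 0.0124). Its groups did not overlap, but DKO replicate 3 was 2.00 times the mean of the other two, and the call was lost without DKO replicate 2 (−1.09, adjusted p = 0.0529).

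The other called genes belong to the basement membrane. Lamc1, the gamma chain of most laminins, had 4.89, 3.51 and 7.46 FPKM in the libraries labelled DKO and 10.3, 8.44 and 9.31 FPKM in control (log2 fold change −0.76, standard error 0.22, adjusted p = 0.0308). Col15a1 had 1.93, 1.28 and 4.77 FPKM in the libraries labelled DKO and 6.77, 4.74 and 5.7 FPKM in control (log2 fold change −0.98, standard error 0.33, adjusted p = 0.0476). Lamc1 did not overlap between groups, whereas DKO replicate 3 of Col15a1 exceeded control replicate 2 by a small margin. Both calls were lost when any library other than DKO replicate 3 was left out, at adjusted p 0.0558 to 0.0841 for Lamc1 and 0.0714 to 0.141 for Col15a1. Without DKO replicate 3 the values were −1.002, adjusted p = 0.00436 for Lamc1 and −1.37, adjusted p = 0.00239 for Col15a1. Col7a1 had 14.7, 8.98 and 18.1 FPKM in the libraries labelled DKO and 27.1, 23.2 and 18.8 FPKM in control, without overlap but just short of the threshold (log2 fold change −0.72, standard error 0.25, adjusted p = 0.0512). It was called lower with the filter at 5 FPKM (adjusted p = 0.0449), median-ratio scaling (0.0328) and totals without keratin and cornified envelope genes (0.0321). Without DKO replicate 3 Col7a1 was also called lower (−0.92, adjusted p = 0.0189). Col4a1 had 2.57, 2.0 and 9.28 FPKM in the libraries labelled DKO and 12.9, 7.96 and 8.97 FPKM in control (log2 fold change −1.16, standard error 0.45, adjusted p = 0.0737). Col4a2 had 2.5, 1.26 and 7.17 FPKM in the libraries labelled DKO and 10.3, 6.2 and 7.08 FPKM in control (log2 fold change −1.12, standard error 0.44, adjusted p = 0.0804). In both collagen IV chains DKO replicates 1 and 2 were below every control library while DKO replicate 3 was among them, and without it the values were −1.71, adjusted p = 0.00164 for Col4a1 and −1.63, adjusted p = 0.00387 for Col4a2. Col18a1 had 9.96, 7.14 and 16.4 FPKM in the libraries labelled DKO and 20.1, 18.7 and 14.7 FPKM in control, and its log2 fold change was −0.69 with all libraries (adjusted p = 0.078) and −0.98, adjusted p = 0.0074 without DKO replicate 3. With all 12 libraries in a shared fit Col4a1 (adjusted p = 0.0219), Col4a2 (0.0226), Col7a1 (0.0337) and Col18a1 (0.0293) were called lower. Nid1 and Lamb1 lay at 0.09 and −0.05 with adjusted p = 0.861 and 0.92 in the 6-month fit.

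The fibrillar collagens gave no call at 6 months with all libraries. Col1a1 had 44.3, 28.4 and 130.3 FPKM in the libraries labelled DKO and 58.7, 44.7 and 59.8 FPKM in control (log2 fold change 0.03, standard error 0.49, adjusted p = 0.97), and its sign turned with either other scaling of the libraries (−0.03 with median-ratio scaling, −0.16 with totals that leave out keratin and cornified envelope genes). Col1a2 had 38.2, 33.0 and 121 FPKM in the libraries labelled DKO and 68.0, 46.9 and 71.2 FPKM in control (log2 fold change −0.18, standard error 0.46, adjusted p = 0.772). Col3a1 had 40.1, 39.3 and 169.9 FPKM in the libraries labelled DKO and 51.5, 39.4 and 63.3 FPKM in control (log2 fold change 0.35, standard error 0.54, adjusted p = 0.628). In all 3 genes DKO replicate 3 was more than every control library. For Col1a1 and Col1a2 the other libraries labelled DKO were below every control library. With all libraries the type V chains Col5a1 (−0.06, adjusted p = 0.923 in limma) and Col5a2 (−0.22, adjusted p = 0.717) overlapped between groups. Without DKO replicate 3, Col1a2 (−0.77, adjusted p = 0.0216) and Col5a2 (−0.79, adjusted p = 0.0102) were called lower, while Col1a1 (−0.59, adjusted p = 0.0681), Col3a1 (−0.34, adjusted p = 0.207) and Col5a1 (−0.55, adjusted p = 0.0829) were not.

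Outside the basement membrane, the collagens with the most negative log2 fold changes were Col6a1 and Col6a2, neither of which passed. Col6a1 had 9.06, 6.33 and 27.1 FPKM in the libraries labelled DKO and 29.9, 26.7 and 23.4 FPKM in control (log2 fold change −1.11, standard error 0.45, adjusted p = 0.085). Col6a2 had 7.8, 4.97 and 25.6 FPKM in the libraries labelled DKO and 21.8, 16.8 and 18.3 FPKM in control (log2 fold change −0.83, standard error 0.49, adjusted p = 0.214). Col6a3 had 3.3, 3.67 and 9.26 FPKM in the libraries labelled DKO and 8.05, 6.18 and 3.89 FPKM in control (log2 fold change −0.21, standard error 0.37, adjusted p = 0.675). DKO replicate 3 lay within or above the control values in each chain, and without it Col6a1 (−1.68, adjusted p = 0.00103) and Col6a2 (−1.46, adjusted p = 0.00236) were called lower and Col6a3 (−0.61, adjusted p = 0.0977) was not. Col12a1 went the other way, with 5.25, 4.7 and 11.8 FPKM in the libraries labelled DKO and 3.43, 4.3 and 3.29 FPKM in control. Every library labelled DKO was above every control library for Col12a1, but it did not pass (log2 fold change 0.73, standard error 0.30, adjusted p = 0.0916). Without DKO replicate 3 the Col12a1 value was 0.36, adjusted p = 0.102. With all 12 libraries in a shared fit Col12a1 was called higher (adjusted p = 0.0479), and the same fit called Col6a1 lower (adjusted p = 0.0369).

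The proteoglycans gave no call at 6 months with all libraries. Dcn had 145, 232 and 383 FPKM in the libraries labelled DKO and 385, 284 and 601 FPKM in control (log2 fold change −0.78, standard error 0.39, adjusted p = 0.146). Lum had 27.7, 43.5 and 113 FPKM in the libraries labelled DKO and 50.1, 43.7 and 93.5 FPKM in control (log2 fold change −0.19, standard error 0.51, adjusted p = 0.786). Bgn had 41.4, 33.8 and 139.6 FPKM in the libraries labelled DKO and 69.7, 52.5 and 90.7 FPKM in control (log2 fold change −0.25, standard error 0.50, adjusted p = 0.717). DKO replicate 3 was the highest of the 6 libraries for Lum and Bgn, and without it Dcn (−1.14, adjusted p = 0.0329) and Bgn (−0.87, adjusted p = 0.0226) were called lower and Lum (−0.75, adjusted p = 0.12) was not.

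The elastic fibre genes overlapped between groups at 6 months. Mfap5 had 1.25, 2.15 and 7.62 FPKM in the libraries labelled DKO and 3.23, 4.47 and 7.11 FPKM in control (log2 fold change −0.54, standard error 0.49, adjusted p = 0.407). Eln had 3.88, 2.53 and 13.8 FPKM in the libraries labelled DKO and 9.41, 9.63 and 14.2 FPKM in control (log2 fold change −0.91, standard error 0.49, adjusted p = 0.178). Fbn1 had 0.96, 1.44 and 4.88 FPKM in the libraries labelled DKO and 3.07, 2.23 and 3.53 FPKM in control (log2 fold change −0.36, standard error 0.39, adjusted p = 0.491). DKO replicates 1 and 2 were below every control library for these 3, and without DKO replicate 3 all were called lower (Mfap5 −1.10, adjusted p = 0.0228; Eln −1.52, adjusted p = 0.00301; Fbn1 −0.84, adjusted p = 0.0156). Lox had 2.2, 1.57 and 7.4 FPKM in the libraries labelled DKO and 1.66, 1.18 and 2.47 FPKM in control (log2 fold change 0.59, standard error 0.43, adjusted p = 0.304), with the libraries interleaved.

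Among the remaining matricellular genes, Postn had 99.8, 129 and 277 FPKM in the libraries labelled DKO and 289, 257 and 192 FPKM in control (log2 fold change −0.66, standard error 0.36, adjusted p = 0.18). Thbs1 had 10.1, 7.56 and 25.8 FPKM in the libraries labelled DKO and 206, 19.4 and 11.2 FPKM in control (log2 fold change −1.45, standard error 1.01, adjusted p = 0.284). Tnc had 3.25, 3.36 and 12.5 FPKM in the libraries labelled DKO and 3.57, 4.68 and 2.21 FPKM in control (log2 fold change 0.53, standard error 0.46, adjusted p = 0.384). With all libraries Sparc (−0.54, adjusted p = 0.406 in limma) and Fn1 (−0.58, adjusted p = 0.391) overlapped between groups and did not pass. Nor did Fstl1 (−0.21, adjusted p = 0.745) or the mesenchymal gene Pdgfra (−0.15, adjusted p = 0.768), also with overlap. Control replicate 1 held more than 10 times the Thbs1 level of the other control libraries, so the spread of Thbs1 at this age is that of 1 library. Ccn1 and Ccn2, secreted regulators induced by mechanical and TGF-beta signals, were also highest in that library. Ccn1 had 7.71, 6.82 and 11.4 FPKM in the libraries labelled DKO and 217, 44.3 and 36.2 FPKM in control (log2 fold change −2.92, standard error 0.63, adjusted p = 0.0096), and Ccn2 had 2.82, 3.59 and 7.28 FPKM in the libraries labelled DKO and 259.8, 41.0 and 42.9 FPKM in control (log2 fold change −3.90, standard error 0.70, adjusted p = 0.00475). Without DKO replicate 3, Postn (−1.09, adjusted p = 0.007), Sparc (−1.15, adjusted p = 0.00702), Fn1 (−1.23, adjusted p = 0.00223) and Fstl1 (−0.81, adjusted p = 0.0216) were called lower, while Tnc (−0.02, adjusted p = 0.95), Thbs1 (−1.93, adjusted p = 0.19) and the mesenchymal gene Pdgfra (−0.55, adjusted p = 0.146) were not.

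The genotype effect was then compared between the ages in 1 fit over all 12 libraries. In 15 of 34 members it was more negative at 6 months than at P36 and in 0 more positive, against 21.1% and 13.8% of 13280 genes. Over all genes the split was 1827 more positive and 2804 more negative, 2503 and 2351 with median-ratio scaling, and 1309 and 3347 with totals that leave out keratin and cornified envelope genes. No member was more positive at an unadjusted p below 0.05, and 22 were more negative. The median difference, 6 months minus P36, was −1.39 on the log2 scale for the members and −0.08 for all genes. The 15 were 6 of 8 basement membrane genes, 3 of 5 beaded-filament and fibril-associated collagens, 3 of 4 elastic fibre genes, 2 of 7 matricellular genes, 1 of 2 mesenchymal genes, and 0 of 5 fibrillar collagens and 0 of 3 proteoglycans. These counts were not tested against each other. Without DKO 6-month replicate 3 the count was 29 of 34, against 24.0% of 13192 genes. Among them were all 8 basement membrane genes, all 3 proteoglycans, all 4 elastic fibre genes and 2 of 5 fibrillar collagens. That library was singled out for its high member values, so more negative differences without it follow from the choice.

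Tgfbi had the largest difference between the ages (−3.11, SE 0.23, adjusted p = 1.61e-05), with a log2 fold change of −1.67 at 6 months and 1.44 at P36. Mfap5 followed (−2.64, SE 0.58, adjusted p = 0.00556), then Postn (−2.54, SE 0.48, adjusted p = 0.00249) and Vim (−2.48, SE 0.32, adjusted p = 0.000321). In the collagen VI chains the difference was −2.46 for Col6a1, −2.29 for Col6a2 and −1.81 for Col6a3, and in the collagen IV chains −2.18 for Col4a1 and −2.04 for Col4a2. Col7a1 (−1.82), Col15a1 (−2.19), Lamc1 (−1.23), Eln (−1.79), Fbn1 (−1.61) and Col18a1 (−0.95) completed the called set. Of these 15, 12 were called under all 19 alternatives run, and Col18a1, Fbn1 and Eln were not. The fibrillar genes Col1a1 (−0.36, SE 0.64, adjusted p = 0.688), Col1a2 (−0.34, SE 0.62, adjusted p = 0.7) and Col3a1 (−0.43, SE 0.70, adjusted p = 0.655) had standard errors larger than their differences. The proteoglycans lay at −1.25, SE 0.48, adjusted p = 0.0645 for Dcn, −1.47, SE 0.64, adjusted p = 0.0937 for Lum and −1.42, SE 0.58, adjusted p = 0.08 for Bgn.

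Ratios between members were taken within each library. DKO replicate 3 lay close to its group in some of these ratios and apart from it in others. At 6 months Col6a1 over Col1a1 was 0.205, 0.223 and 0.208 in libraries labelled DKO, against 0.51, 0.598 and 0.392 in control. At P36 it was 0.142, 0.107 and 0.0944 in libraries labelled DKO, against 0.0565, 0.0465 and 0.0669 in control. The 3 libraries labelled DKO were close to each other at 6 months and lay below control, and at P36 they lay above it, without overlap at either age. Col4a1 over Col1a1 was 0.0581, 0.0703 and 0.0712 in libraries labelled DKO, against 0.219, 0.178 and 0.15 in control at 6 months. At P36 it was 0.163, 0.182 and 0.124 in libraries labelled DKO, against 0.0844, 0.0783 and 0.142 in control, with overlap through control replicate 3. Vim over Col1a1 was 2.42, 4.03 and 1.7 in libraries labelled DKO, against 5.22, 6.48 and 6.75 in control at 6 months. At P36 it was 0.651, 0.75 and 0.571 in libraries labelled DKO, against 0.339, 0.25 and 0.551 in control. The Vim ratio changed sides between the ages without overlap at either. Tgfbi over Col1a1 was 1.57, 1.77 and 0.513 in libraries labelled DKO, against 3.27, 4.21 and 3.62 in control at 6 months, where DKO replicate 3 was the lowest library. At P36 the Tgfbi ratio was 0.208, 0.258 and 0.231 in libraries labelled DKO, against 0.12, 0.0797 and 0.139 in control, above control without overlap. Other ratios taken did not separate the groups at 6 months: Col3a1, Col5a2 and Postn over Col1a1, and Mfap5 over Fbn1, all overlapped. At P36 Col3a1 over Col1a1 overlapped too, while Col5a2 and Postn over Col1a1 and Mfap5 over Fbn1 lay above control. All are ratios of FPKM with no test. Where groups separate, a ratio shows unequal change of 2 genes and not which of them changed.

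Ratios were also taken within chain pairs and within the proteoglycans. Col1a1 over Col1a2 was 1.16, 0.863 and 1.07 in libraries labelled DKO, against 0.862, 0.953 and 0.839 in control at 6 months. At P36 it was 1.35, 1.7 and 1.39 in libraries labelled DKO, against 1.07, 1.42 and 1.29 in control. Groups overlapped for this pair at both ages, and so did Col4a1 over Col4a2, which was 1.03, 1.59 and 1.29 in libraries labelled DKO, against 1.25, 1.28 and 1.27 in control at 6 months. Col6a1 over Col6a2 was 1.16, 1.27 and 1.06 in libraries labelled DKO, against 1.37, 1.59 and 1.28 in control at 6 months. At P36 it was 0.877, 0.876 and 0.87 in libraries labelled DKO, against 1.02, 0.919 and 0.904 in control. For this collagen VI pair every library labelled DKO was below control at both ages. Lum over Dcn was 0.191, 0.188 and 0.295 in libraries labelled DKO, against 0.13, 0.154 and 0.156 in control at 6 months. At P36 it was 0.279, 0.228 and 0.194 in libraries labelled DKO, against 0.129, 0.161 and 0.1 in control. Lumican stood higher relative to decorin in the libraries labelled DKO at both ages, without overlap. Bgn over Dcn overlapped at both ages.

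**Figure D4:**
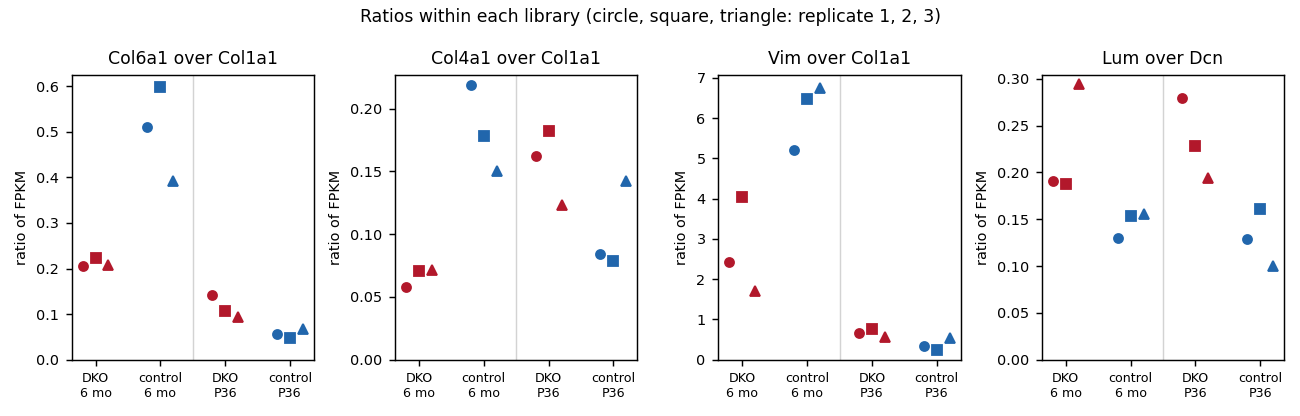
Ratios of FPKM within each library (y axis, linear from 0) for Col6a1 over Col1a1, Col4a1 over Col1a1, Vim over Col1a1 and Lum over Dcn, DKO in red left of control in blue, 6 months left of P36, with circle, square and triangle for replicates 1, 2 and 3. The Col6a1 ratios of the 3 DKO libraries at 6 months lie between 0.205 and 0.223, below the control range of 0.392 to 0.598.

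The order of the levels also differed by age. At 6 months the members with the highest mean in the libraries labelled DKO were Dcn (253 ± 121 FPKM), Postn (169 ± 95.1) and Vim (148 ± 64.0), and in control Dcn (424 ± 162), Vim (333 ± 61.8) and Postn (246 ± 49.6; SD, n = 3 each). At P36 the libraries labelled DKO were led by Sparc (516 ± 26.4 FPKM), Col1a1 (389.5 ± 27.0) and Col3a1 (299.6 ± 66.7), and control by Sparc (367 ± 91.0), Col1a1 (317 ± 134) and Col1a2 (252 ± 98.7). Neighbours among these named genes differed by less than the sum of their SDs, except Sparc and Col1a1 at P36 under the DKO label. Col14a1 had the lowest mean of the members in 3 of the 4 groups, and in P36 control Mfap5 was lower (1.86 ± 0.316 FPKM) than Col14a1 (2.23 ± 1.34). The tables of the 2 ages were normalised separately, so levels are set side by side between them with no test.

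Genes that build or modify the same matrix were read from lists outside the members. Their counts stand beside shares over all genes of 18.2% lower and 23.2% higher at 6 months, and 18.0% higher and 5.32% lower at P36. Of 28 genes of collagen synthesis and processing, 24 were tested at each age. At 6 months 10 fell and 1 rose, and Adamts14, a procollagen N-proteinase, had 4.25, 2.87 and 3.81 FPKM in the libraries labelled DKO and 15.8, 12.5 and 12.5 FPKM in control (log2 fold change −1.66, standard error 0.16, adjusted p = 0.000507). At P36 16 rose and 1 fell, and Loxl1, a cross-linking enzyme of elastic fibres, had 14.5, 11.0 and 12.7 FPKM in the libraries labelled DKO and 2.47, 3.34 and 3.12 FPKM in control (log2 fold change 1.78, standard error 0.14, adjusted p = 0.000388). The collagen chaperone Serpinh1 had 137, 151 and 135 FPKM in the libraries labelled DKO and 53.0, 78.7 and 50.2 FPKM in control at P36 (log2 fold change 1.23, standard error 0.17, adjusted p = 0.00187). Crtap, a partner of a prolyl hydroxylase, fell at 6 months (log2 fold change −1.04, standard error 0.16, adjusted p = 0.00245) while P4hb, a subunit of another prolyl hydroxylase, rose (log2 fold change 0.47, standard error 0.10, adjusted p = 0.00804). The Crtap and P4hb groups did not overlap.

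Other collagens at 6 months included epithelial ones. Of 9 tested, 7 fell and 0 rose at 6 months, against 18.2% of all genes called lower. Of 10 tested at P36, 2 rose and 0 fell, which is near the 18.0% of all genes called higher. Col17a1, the hemidesmosome collagen of basal keratinocytes, had 158, 87.2 and 119.5 FPKM in the libraries labelled DKO and 399, 404 and 360.1 FPKM in control (log2 fold change −1.70, standard error 0.20, adjusted p = 0.00118). Col4a6, a collagen IV chain of epithelial basement membranes, had 1.99, 2.1 and 2.25 FPKM in the libraries labelled DKO and 8.45, 6.72 and 7.94 FPKM in control (log2 fold change −1.48, standard error 0.12, adjusted p = 0.000346). DKO replicate 3 was level with the other two for both genes. Col5a3, another type V chain, had 19.5, 14.3 and 10.1 FPKM in the libraries labelled DKO and 2.22, 2.96 and 2.2 FPKM in control at P36 (log2 fold change 2.14, standard error 0.22, adjusted p = 0.000733). Of the other basement membrane genes, 9 of 14 fell and 0 rose at 6 months and 7 of 13 rose and 0 fell at P36. Lamb3, a chain of the main keratinocyte laminin, had 18.0, 10.8 and 15.7 FPKM in the libraries labelled DKO and 45.9, 52.3 and 45.0 FPKM in control at 6 months (log2 fold change −1.65, standard error 0.18, adjusted p = 0.000857). Its groups did not overlap.

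The remaining matrix lists followed. Over all genes 18.2% were called lower and 23.2% higher at 6 months, and 18.0% higher and 5.32% lower at P36. Without DKO replicate 3 the 6-month shares were 20.2% lower and 19.4% higher. Of 9 other proteoglycan genes, 1 fell and 0 rose at 6 months (Fmod, fibromodulin, log2 fold change −2.65, standard error 0.34, adjusted p = 0.00151) and 3 rose and 0 fell at P36. Of 13 other elastic fibre genes, 5 fell and 0 rose at 6 months and 6 rose and 0 fell at P36, among them Efemp2, needed for elastic fibre assembly (log2 fold change 1.32, standard error 0.17, adjusted p = 0.00176). Of 17 genes of TGF-beta and matrix signalling, 7 fell and 0 rose at 6 months, and 8 rose and 3 fell at P36. Tgfbr2, a TGF-beta receptor, had 21.5, 24.3 and 29.4 FPKM in the libraries labelled DKO and 8.54, 8.56 and 7.87 FPKM in control at P36 (log2 fold change 1.47, standard error 0.12, adjusted p = 0.000474). The ligand gene Tgfb2 had 0.54, 0.56 and 1.03 FPKM in the libraries labelled DKO and 4.57, 2.54 and 2.99 FPKM in control at 6 months (log2 fold change −1.34, standard error 0.21, adjusted p = 0.00299). Of the collagen and matrix receptors, 5 of 15 fell and 2 rose at 6 months, led by the syndecan Sdc4 (log2 fold change −1.16, standard error 0.10, adjusted p = 0.000344), and 6 of 12 rose and 0 fell at P36, led by the integrin chain Itgb1 (log2 fold change 0.77, standard error 0.09, adjusted p = 0.00135). The list medians at 6 months were −0.52 for collagen processing, −0.88 for other collagens, −0.81 for other basement membrane genes, −0.59 for other proteoglycans, −0.88 for other elastic fibre genes, −0.46 for TGF-beta signalling and −0.08 for receptors. Without DKO 6-month replicate 3 the genes lower at 6 months were 14 of 22 for collagen processing (median −0.79), 7 of 9 for other collagens (−1.19), 11 of 14 for other basement membrane genes (−0.999), 5 of 9 for other proteoglycans (−0.90), 12 of 12 for other elastic fibre genes (−1.44), 11 of 17 for TGF-beta signalling (−0.69) and 6 of 12 for receptors (−0.29), while 1 gene each was higher for collagen processing and receptors. That library was singled out for its high member values, and it had the highest mean log2(FPKM + 1) of its group in each of these lists. Lower DKO levels of the lists without it therefore follow from the choice and are no separate evidence. At P36 the list medians were 0.70, 0.36, 0.49, 0.51, 0.61, 0.61 and 0.45 in the same order, beside 0.09 for all genes, and the median of all genes at 6 months was 0.04, or 0.01 without DKO replicate 3.

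Some lists of markers of other cells moved in the direction of the members and others did not. Of these markers, 4 of the 16 fibroblast markers and 4 of the 10 basal keratinocyte genes also stand in a matrix list above. For every marker list below, the shares over all genes were 18.2% lower and 23.2% higher at 6 months. At P36 they were 18.0% higher and 5.32% lower, and at 6 months without DKO replicate 3 they were 20.2% lower and 19.4% higher. Of 16 other dermal fibroblast markers, 6 fell and 0 rose at 6 months (median −0.55), and 12 rose and 1 fell at P36 (median 1.10), with summed FPKM of 285 to 492 in the libraries labelled DKO and 452 to 627 in control at 6 months, and of 663 to 692 in the libraries labelled DKO and 271 to 336 in control at P36. Thy1, a fibroblast surface protein, had 107, 86.9 and 84.3 FPKM in the libraries labelled DKO and 22.5, 28.9 and 26.9 FPKM in control at P36 (log2 fold change 1.79, standard error 0.13, adjusted p = 0.000292). DKO replicate 3 at 6 months again held the highest fibroblast sum of its group. Of 12 skeletal muscle genes tested at P36, 11 rose and 0 fell (median 3.54), with summed FPKM of 712, 409 and 162 in the libraries labelled DKO, against 19.3, 16.9 and 35.5 in control. At 6 months 0 of 9 passed (median −0.17), with 22.4, 12.4 and 180.8 FPKM in the libraries labelled DKO, against 12.7, 79.7 and 38.6 in control, so DKO replicate 3 was also highest for muscle.

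Of 10 adipocyte genes, 1 rose and 0 fell at 6 months (Pparg, log2 fold change 2.04, standard error 0.22, adjusted p = 0.000857) and 8 rose and 0 fell at P36, with summed FPKM of 169 to 602 in the libraries labelled DKO and 127 to 677 in control at 6 months, and 1132 to 1485 in the libraries labelled DKO and 763 to 1177 in control at P36. Of smooth muscle and endothelium genes, 6 of 15 fell and 0 rose at 6 months (70.7 to 153 FPKM in the libraries labelled DKO and 208 to 279.6 in control), and 11 of 14 rose and 0 fell at P36 (284 to 312 FPKM in the libraries labelled DKO and 110.2 to 151 in control). Myh11, smooth muscle myosin, had 2.37, 2.77 and 3.61 FPKM in the libraries labelled DKO and 23.5, 18.3 and 21.8 FPKM in control at 6 months (log2 fold change −2.51, standard error 0.15, adjusted p = 0.000148). Of 7 Schwann cell genes, 6 fell and 0 rose at 6 months and 1 rose and 0 fell at P36, with 86.7 to 129 FPKM in the libraries labelled DKO and 144 to 211 in control at 6 months, and 63.0 to 129.7 in the libraries labelled DKO and 68.2 to 86.9 in control at P36. Of 11 macrophage and mast cell genes, 1 rose and 1 fell at 6 months and 10 rose and 1 fell at P36, with 86.5 to 376 FPKM in the libraries labelled DKO and 85.5 to 163 in control at 6 months, and 281 to 393 in the libraries labelled DKO and 59.5 to 81.4 in control at P36. DKO replicate 3 was the highest library labelled DKO at 6 months for each of these 4 lists.

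Of 5 genes of red blood cells, 4 rose and 0 fell at 6 months and 0 passed at P36, with 113 to 273 FPKM in the libraries labelled DKO and 42.0 to 114 in control at 6 months, and 49.1 to 508 in the libraries labelled DKO and 99.1 to 138 in control at P36. Of dermal papilla genes, 6 of 7 fell and 0 rose at 6 months (12.5 to 28.9 FPKM in the libraries labelled DKO and 37.5 to 59.9 in control), and 2 of 10 fell and 0 rose at P36 (64.9 to 89.9 FPKM in the libraries labelled DKO and 66.7 to 125 in control). Of 10 basal keratinocyte genes, 8 fell and 0 rose at 6 months and 6 rose and 0 fell at P36. No marker was at 0 in all 6 libraries of an age, and those listed at 0 in some library were Ttn for muscle at P36, and Myh2 and Pvalb for muscle, Hbb-bt for red blood cells and Hhip for the dermal papilla at 6 months. Without DKO 6-month replicate 3, 12 of 16 fibroblast, 9 of 15 smooth muscle and endothelium, 6 of 7 Schwann cell, 6 of 7 dermal papilla and 8 of 10 basal keratinocyte genes were lower at 6 months and 0 were higher. In the same fit 1 of 11 macrophage and mast cell genes (median −0.05) and 1 of 6 skeletal muscle genes (−1.40) were lower and 0 higher, 1 of 9 adipocyte genes was higher and 0 lower (−0.66), and 2 of 4 red blood cell genes were higher and 0 lower (1.71). DKO 6-month replicate 3 was singled out for its high member values. It also had the highest mean log2(FPKM + 1) of its group in every marker list but that of basal keratinocytes. Lower DKO levels of those lists without it therefore follow from the choice and are no separate evidence. The part of these cell types in the changes of the matrix genes was not tested.

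**Figure D5:**
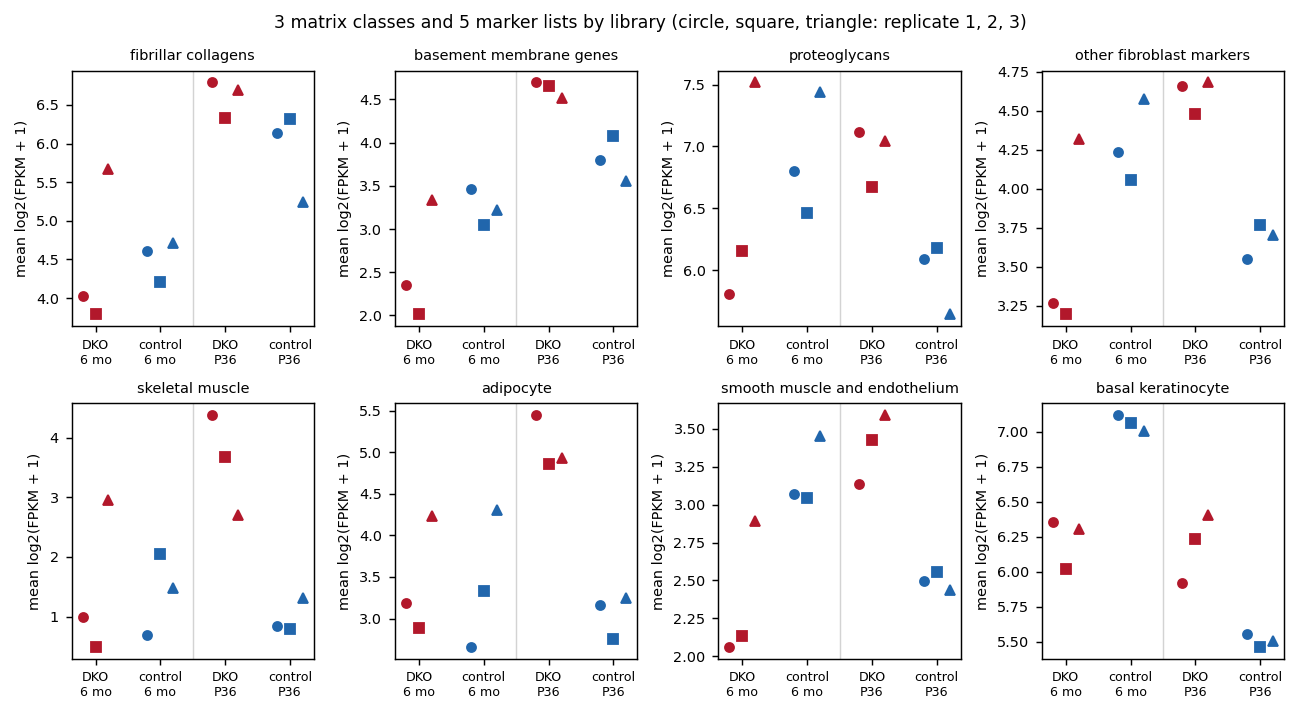
Mean log2(FPKM + 1) per library (y axis) of 3 matrix classes and 5 marker lists, DKO in red left of control in blue, 6 months left of P36, with circle, square and triangle for replicates 1, 2 and 3. DKO replicate 3 at 6 months is the highest DKO library of that age in all panels but that of basal keratinocytes, where it lies at 6.31 between 6.36 and 6.02.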

How the data were processed

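Total RNA of 12 mouse epidermis libraries was sequenced as 50-base single-end reads after removal of ribosomal RNA, per the labels' protocols. The authors deposited 1 table per age with FPKM values to 2 decimals. HISAT2 2.1.0 and RSEM 1.2.8 are named in the submitters' processing notes, where the builds named are GRCh38 and hg38, of another species, and no coordinates of the files are used. The age of a table was taken from its name, and genotype and replicate from its column names. The authors' own fold changes and p-values were not used here. The FPKM columns carry no read number, so depth is unknown and no counting interval is given.

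Gene symbols came from the RefSeq gene table of GRCm38.p6 through the Entrez identifiers (17712 of 17750 at 6 months, 19343 of 19392 at P36). In R 4.3.3, limma 3.58.1 with a mean-variance trend was fitted to log2(FPKM + 1) of genes that reached 1 FPKM in 3 or more of the libraries fitted, after a test on simulated data. Ages were fitted separately on 6 libraries, and their difference in genotype effect on all 12. Benjamini-Hochberg adjustment ran over all genes tested, and calls needed an adjusted p below 0.05. The labels do not say that replicates are separate animals, so the p-values cover only the spread between these samples, which may be technical. No 2 libraries of an age shared more than 0.393% of their values.

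Members, classes and lists were chosen with earlier results of these data known, so no p is given over a list. All 34 members are reported. Values per library were to be printed for members called in any comparison, and those of Col1a1, Col1a2, Col3a1, Col14a1 and Dcn were added after their values were seen. From each other list up to 4 genes with the smallest adjusted p could be named, and only part of these are. Alternatives were a pseudocount of 0.1, no filter, a filter at 5 FPKM, median-ratio scaling, totals without keratin and cornified envelope genes, a replicate block, no variance trend, all 12 libraries in the fit of an age, and each library left out.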

Additional observations from a re-analysis of the deposited data

Results flagged for a closer look

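In 15 members the genotype effect differed between the ages by the test of the difference itself (limma, adjusted p below 0.05, 6 months minus P36 on the log2(FPKM + 1) scale). The difference was −3.11 for Tgfbi, −2.64 for Mfap5, −2.54 for Postn and −2.48 for Vim. Among collagens it was −2.46 for Col6a1, −2.29 for Col6a2, −2.19 for Col15a1, −2.18 for Col4a1, −2.04 for Col4a2, −1.82 for Col7a1, −1.81 for Col6a3 and −0.95 for Col18a1. It was −1.79 for Eln, −1.61 for Fbn1 and −1.23 for Lamc1. At 6 months all 15 had a negative log2 fold change and at P36 a positive one, and all had passed the test at P36 except Col18a1 and Lamc1. At 6 months only Tgfbi, Vim, Lamc1 and Col15a1 of the 15 had passed. Others lay near 0 there, such as Col6a3 (−0.21, adjusted p = 0.675) and Fbn1 (−0.36, adjusted p = 0.491). DKO 6-month replicate 3 was above the mean of the other libraries labelled DKO in each of the 15. Without it all 15 differences were called and lay further from 0. That library was singled out for its high member values, so the move away from 0 follows from the choice. With the groups at 3 libraries each, no library was tested for standing apart within its group.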

How the results depend on the processing

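The P36 count of 24 members higher was 14 with all 12 libraries in 1 fit and 22 to 24 under the other alternatives that kept every library. Over all genes, median-ratio scaling gave 1035 lower at P36 and moved their median log2 fold change to −0.02, against 0.09. At 6 months the count of 4 members lower was 2 with no filter and 9 with all 12 libraries, where 1 was higher. Scaling to totals that leave out keratin and cornified envelope genes gave 1879 genes higher and 3327 lower at 6 months and moved the median of all genes to −0.12, against 0.04, and the median difference between ages to −0.19, against −0.08. Under that scaling Col1a1 was −0.16 and Nid1 −0.0487 at 6 months, and median-ratio scaling gave −0.027 for Col1a1. The elastic fibre median at P36 was 1.31 with a pseudocount of 0.1, and the mesenchymal median at 6 months was −1.23 with the 5 FPKM filter, which leaves Vim alone. Shared replicate numbers were not found to pair the samples: deviations of same-numbered libraries correlated at 0.13, −0.06 and −0.12 at P36 and −0.06, 0.03 and 0.18 at 6 months. With the replicate block 23 members were higher at P36, 5 were lower at 6 months and 16 differences were called, with Thbs1 at P36 (adjusted p = 0.0506) and the Col18a1 difference (0.0642) lost and Dcn at 6 months (0.0364) and the Dcn (0.0422) and Pdgfra (0.0356) differences gained.

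With 1 library left out, all genes called ranged from 1295 to 1969 higher and 367 to 691 lower at P36, and from 1462 to 2495 lower at 6 months. The P36 counts fell below the full ones by over 1.5 times without DKO replicate 2 (1295 and 367) or DKO replicate 3 (1315 and 382), and the lower count also without control replicate 1 (385), and the 6-month count did so without control replicate 3 (1462). Members lower at 6 months ranged from 1 to 21 and called differences from 12 to 29. Class medians at P36 ranged from 0.42 to 0.99 for fibrillar collagens, from 1.06 to 1.31 for elastic fibre and from 1.16 to 1.36 for matricellular genes. Log2 fold changes turned sign for Col1a2 at P36 (−0.23 to 0.36) and, at 6 months, for Col1a1 (−0.59 to 0.49), Col1a2 (−0.77 to 0.16), Col3a1 (−0.34 to 0.70), Col5a1 (−0.55 to 0.30), Col5a2 (−0.79 to 0.10), Col6a3 (−0.61 to 0.0206), Nid1 (−0.35 to 0.32), Lamb1 (−0.49 to 0.18), Lum (−0.75 to 0.25), Bgn (−0.87 to 0.14), Tnc (−0.021 to 0.81), Fstl1 (−0.81 to 0.21) and Pdgfra (−0.55 to 0.11). The differences of Col1a1 (−0.98 to 0.10) and Col1a2 (−0.92 to 0.0445) did so too. Apart from the counts that rest on fewer genes or libraries by construction, the cause of these shifts was not tested. The unknown depth limits what can be said of members near 1 FPKM, such as Col14a1.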
